A study of Phaseolus vulgaris with 24 samples.

Results

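The gene described here is Phvul.001G225000, the single gene that the supplementary annotation of the study names a nicotianamine synthase, and it was 1 of 27213 genes counted in common bean (Phaseolus vulgaris). Ispir, a salt-tolerant genotype, and TR43477, a salt-susceptible genotype, were grown in hydroponics, and leaves and roots were collected from control plants and from plants whose NaCl was raised in steps to 125 mM and held there for 3 days. The 8 groups of 3 biological replicates were Ispir leaf (IL), TR43477 leaf (TL), Ispir root (IR) and TR43477 root (TR), each as control and as salt-treated samples, and all 24 poly(A)-selected RNA libraries were used. Each genotype stands for 1 line, so a difference between Ispir and TR43477 is a difference between these lines as grown. Seedlings were moved to hydroponics once their foliage was fully expanded, which was later after sowing for Ispir than for TR43477. Genotype and days since sowing can therefore not be told apart. The gene was chosen by its leaf values, a salt response called in Ispir leaves and none called in TR43477 leaves. Every comparison that uses leaf libraries is therefore given as a description with no test of this gene, and its tests are those on the roots.

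Nicotianamine synthase joins molecules of S-adenosylmethionine into nicotianamine, a small amino acid-like compound of plants that binds iron, zinc, copper and manganese. Nicotianamine keeps these metals soluble and mobile in the phloem and between cells, and carriers of the yellow stripe-like family move the complexes across membranes. In grasses it is also the precursor of the phytosiderophores that are released to take up iron, while legumes such as bean reduce ferric iron at the root surface before uptake. The reaction draws on the methionine cycle, which rebuilds S-adenosylmethionine and clears its by-products.

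In genome version 2.1 of common bean, Phvul.001G225000 lay on chromosome 1 from base 47980872 to base 47982640 on the minus strand, a span of 1769 bases. No other gene of the count tables overlapped it. Its neighbours were Phvul.001G224900, 4532 bases away on the plus strand, and Phvul.001G225100, 17104 bases away on the minus strand. Plants usually hold several nicotianamine synthase genes of similar sequence, and the treatment of reads that match more than 1 place is not given in the sources used here, so reads shared with a close copy cannot be told apart.

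Phvul.001G225000 was counted in every library, with 231 to 8687 reads in libraries of 12163655 to 26416766 counted reads. The leaf and root labels were checked with 56 photosynthesis genes, whose summed level was 12278 to 126510 CPM (read counts scaled to a common library size) in the 12 leaf libraries and 135 to 715 CPM in the 12 root libraries. The libraries of the TL control group resembled each other least. Their mean correlation with the rest of their own group was 0.934 to 0.954, against 0.971 to 0.993 in the other 7 groups.

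Levels below are CPM after TMM scaling (trimmed mean of M-values, which evens out differences in library composition) of the 24 libraries together, with the SD over 3 libraries. The highest group mean of Phvul.001G225000 was in salt-treated TR43477 roots, at 317 ± 104 CPM, and the lowest in salt-treated Ispir leaves, at 24.9 ± 7.76 CPM. Between these lay TL control (196 ± 156), IR salt (159 ± 12.8), TL salt (158 ± 23.9), IL control (154 ± 29.2), TR control (78.0 ± 14.5) and IR control (73.3 ± 15.1). Neighbours in this order overlapped in their single libraries except at 2 places. Every IL control library lay above every TR control library, and every IR control library lay above every IL salt library. The place of the TL control group rested on its replicate 1. Without that library its mean was 112 CPM, between IL control and TR control.

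**Figure D1:**
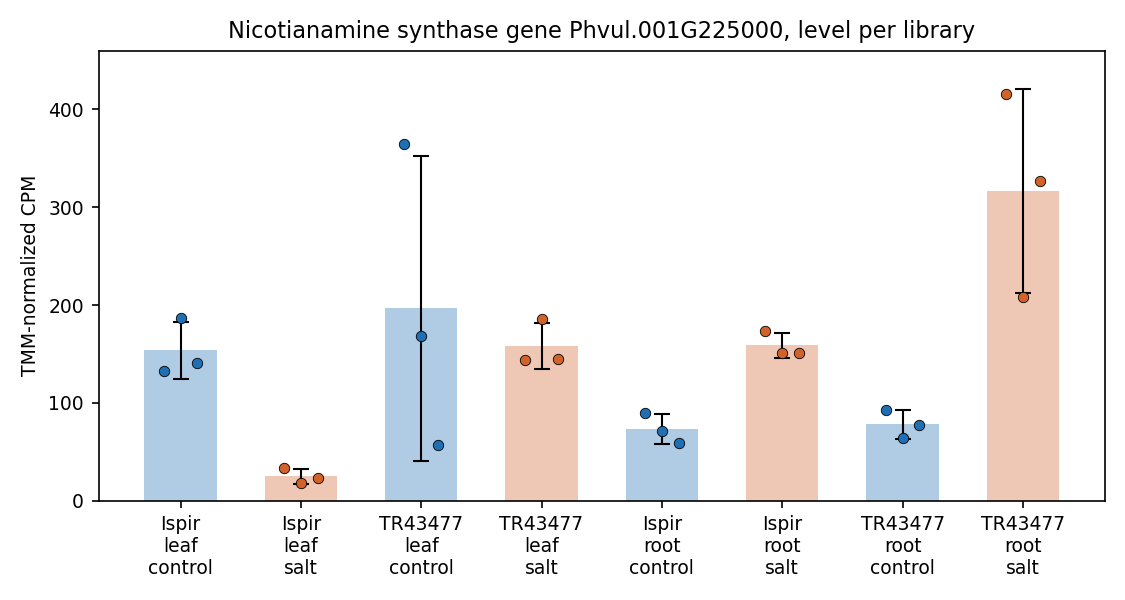
Level of Phvul.001G225000 in TMM-normalized CPM in each of the 24 libraries (points), with the mean (bars) and SD (error bars) of the 3 libraries of each group, controls in blue and salt-treated samples in orange. The 3 Ispir leaf salt libraries lie between 18.2 and 33.4 CPM, below every other library, and the TR43477 leaf controls spread from 56.6 to 365 CPM.

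In Ispir leaves the level fell with salt, the response for which the gene was listed. The IL control libraries had 133, 187 and 141 CPM and the IL salt libraries 33.4, 18.2 and 23.0 CPM. The groups did not overlap, and the lowest control was 3.98 times the highest salt-treated library. The mean fell by 83.8%, a ratio of 6.18 between control and salt, and the fitted log2 fold change was -2.64. In this contrast 4.81% of all genes tested were called changed, which is given as background only since the contrast chose the gene. The smallest count behind a value, 231 reads in 1 IL salt library, gave 23.0 CPM with an exact 95% Poisson interval of 20.1 to 26.1, so counting error was small beside the spread between libraries. Such intervals cover counting error only, and in whole leaves a smaller share of cells that express the gene cannot be told apart from less RNA per cell.

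In TR43477 leaves the salt-treated libraries fell within the range of their controls. The TL controls had 365, 168 and 56.6 CPM and the TL salt libraries 144, 186 and 144 CPM. The ratio of salt to control means was 0.804, and the fitted log2 fold change was -0.29, beside 5.09% of all genes called in that contrast. The control group had a coefficient of variation of 79.4%, against 8.08% to 32.9% in the other groups. Its direction depended on single libraries, with a log2 fold change of 0.50 without control replicate 1 and -0.73 without control replicate 3. The summed photosynthesis genes were 68830, 94023 and 126510 CPM in the same 3 controls, lowest where Phvul.001G225000 was highest, and 12278 to 13001 CPM in the TL salt libraries. In the IL controls the sums were 28187, 54201 and 103490 CPM beside 133, 187 and 141 CPM of Phvul.001G225000, with no such inverse order. The part of the photosynthesis genes in the spread of the TL controls was not tested.

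The salt-treated leaves of the genotypes did not overlap. The Ispir mean was 6.36 times lower than the TR43477 mean, and the fitted Ispir minus TR43477 difference was -2.67 on the log2 scale, beside 22.9% of all genes called in that contrast. In the control leaves the same difference was -0.31, with overlapping libraries and 0.535% of genes called. The difference between the leaf salt responses, Ispir minus TR43477, was -2.32 on the log2 scale, beside 5.14% of genes called. These differences rest on the leaf libraries that chose the gene and carry no test.

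In Ispir roots the level rose with salt, opposite to the direction in Ispir leaves. The IR control libraries had 89.4, 71.0 and 59.4 CPM and the IR salt libraries 174, 151 and 151 CPM. The groups did not overlap, and the ratio of the means was 2.17. The log2 fold change was 1.09 (SE 0.18, n = 3 per group, edgeR quasi-likelihood test, two-sided, Benjamini-Hochberg adjusted p = 0.0076 over 23461 genes), and it passed the thresholds used here, a change of more than 1 log2 unit in either direction with an adjusted p below 0.01. In this contrast 4.06% of all genes were called. The call was near both thresholds. It was lost without any of the 3 controls and without salt replicate 1 or salt replicate 3 (log2 fold change 0.96 to 1.29 over the 6 fits that leave out 1 library, adjusted p 0.0082 to 0.042), while every such fit gave an increase. It was also lost with all 12 root libraries in 1 fit (1.09, adjusted p = 0.014).

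In TR43477 roots the level was higher with salt in every library, by a larger estimate. The TR control libraries had 92.8, 63.9 and 77.2 CPM and the TR salt libraries 416, 208 and 326 CPM. The lowest salt-treated library was 2.24 times the highest control, and the ratio of the means was 4.06. The log2 fold change was 1.996 (SE 0.29, edgeR adjusted p = 0.020), which did not pass the adjusted p threshold in a contrast where 0.456% of all genes were called. With the spread estimated over all 12 root libraries the adjusted p was 0.0013, and DESeq2 gave 3.3e-09, and both called the increase.

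The difference between the root responses was tested directly. The Ispir response minus the TR43477 response was -0.91 on the log2 scale (SE 0.35, edgeR adjusted p = 0.31 over 24210 genes, 12 libraries), and it was not called. In this test 0 genes were called (0% of those tested), while 2975 had an unadjusted p under 0.05 and DESeq2 called 253. The unadjusted p of Phvul.001G225000 was 0.022. An interval of 2 SE on either side of the estimate ran from -1.60 to -0.22, so the roots of the genotypes are not shown to respond alike.

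Compared within treatments, the roots of the genotypes overlapped under control conditions and not under salt. The Ispir minus TR43477 difference in control roots was -0.07 on the log2 scale (SE 0.21, edgeR adjusted p = 0.86), beside 2.07% of genes called, and its sign changed when single libraries were left out. In salt-treated roots the difference was -0.999 (SE 0.25, edgeR adjusted p = 0.033), beside 5.99% of genes called. The TR43477 mean was 1.996 times the Ispir mean there, and the highest Ispir library had 174 CPM against 208 CPM in the lowest TR43477 library. This difference did not pass the thresholds, except without TR43477 salt replicate 2, the lowest library of its group, where it was -1.22 with an adjusted p of 0.0081.

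**Figure D2:**
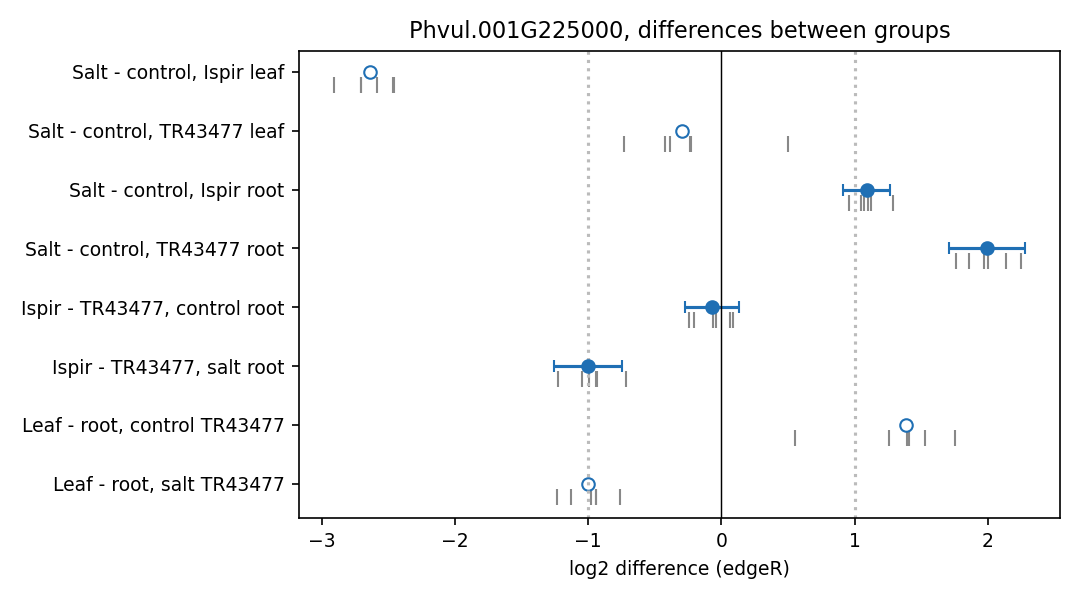
Differences of Phvul.001G225000 between groups on the log2 scale from edgeR, with filled points and bars of 1 SE for the tested root comparisons and open points, with no error bar, for comparisons that use leaf libraries. Grey ticks are the estimates with 1 library left out and dotted lines mark log2 differences of -1 and 1. All ticks of both root salt responses lie above 0, and those of the TR43477 leaf response lie on both sides of 0.

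In Ispir the leaf level stood above the root level in controls and below it with salt. In control Ispir the leaf mean was 2.096 times the root mean, and in salt-treated Ispir the root mean was 6.39 times the leaf mean, both without overlap between the libraries. The log2 differences, leaf minus root, were 1.01 in control and -2.65 in salt-treated Ispir, beside 39.8% and 44.2% of genes called. In control TR43477 the leaf and root libraries overlapped, since leaf control replicate 3, with 56.6 CPM, lay below every root control. The leaf minus root difference there was 1.39, beside 22.6% of genes called, and it was 0.56 without leaf control replicate 1 and 1.76 without leaf control replicate 3. In salt-treated TR43477 every leaf library lay below every root library, with a difference of -1.002, beside 48.8% of all genes called and a median of -0.18 over all genes. All of these values use leaf libraries that took part in choosing the gene and carry no test.

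Other genes of metal handling and methionine metabolism came from the same supplementary annotation, 27 in all. Of these, 12 were for copper, 10 for zinc, 3 for manganese and iron, and 2 were grouped under the methionine cycle. All were listed there for a change in these libraries, so their counts are not independent evidence of a response. In Ispir roots 25 of the 27 had counts and were tested, of which 2 rose and 8 fell, beside 4.06% of all genes called (2.57% higher and 1.48% lower). Their median log2 fold change was -1.08, against 0.009 over all genes. The 10 called genes were all listed for a change in Ispir roots. DESeq2 and the likelihood ratio test of edgeR each called 18, of which 5 rose and 13 fell, and both also called more of all genes. Elsewhere edgeR alone stands for its quasi-likelihood test. The number called was 1, 2 and 3 without control replicate 1, 2 and 3, and 6, 5 and 6 without salt replicate 1, 2 and 3. In TR43477 roots 26 were tested and edgeR called 0, beside 0.456% of all genes. An unadjusted edgeR p under 0.05 was found for 8 of the 26, beside 4042 of all 23696 genes. DESeq2 called 2, and it also called more of all genes than edgeR did. Their median there was -0.36, against 2.3e-04 over all genes. Most of the list was chosen for a change in Ispir roots, and only Phvul.L007443 for a change in TR43477 roots. The contrast between these counts and medians is thus in part built into the list.

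**Figure D3:**
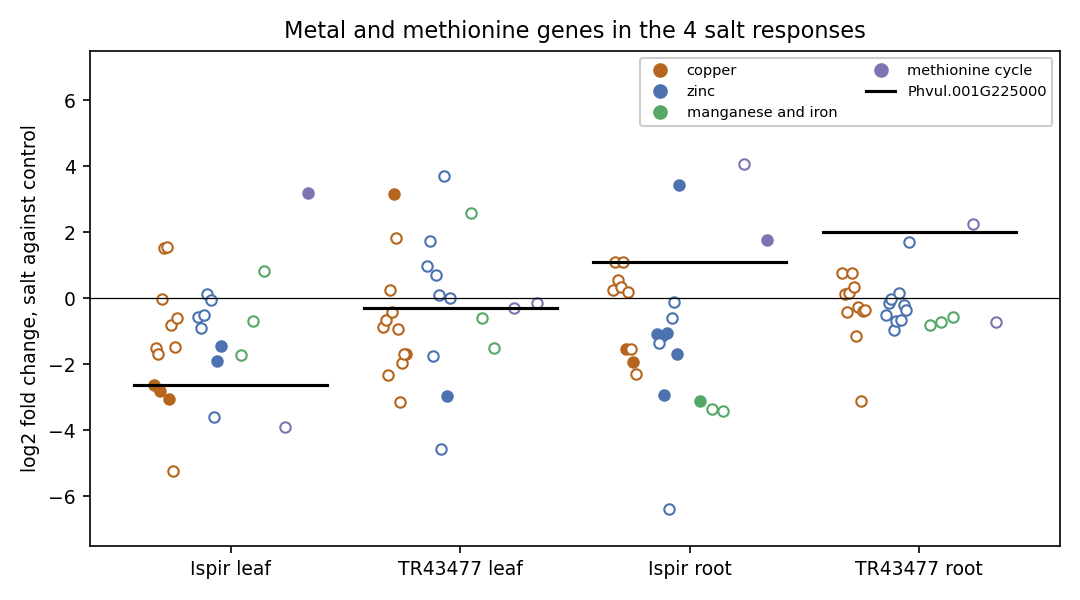
Log2 fold change, salt against control, of the copper, zinc, manganese and iron, and methionine genes (labelled methionine cycle) in the 4 salt responses, 1 point per gene, filled where the gene was called. Black lines mark Phvul.001G225000, which lies at -2.64 in Ispir leaf and at 1.996 in TR43477 root, where none of the listed genes was called.

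The manganese and iron genes stood lower in Ispir roots with salt, where Phvul.001G225000 was higher. Phvul.008G244200, related to metal tolerance protein C3, a family that moves manganese and other divalent metals out of the cytosol, had 398, 352 and 616 CPM in IR control and 24.6, 40.2 and 94.3 CPM in IR salt libraries, and it fell by 3.12 on the log2 scale. Phvul.010G101500, related to ferric reduction oxidase 2, the root enzyme that reduces ferric iron for uptake in Arabidopsis, had 766, 777 and 907 CPM in IR control and 20.6, 63.0 and 148 CPM in IR salt libraries. Neither gene overlapped between its groups. The log2 fold change of Phvul.010G101500 was -3.42 (edgeR adjusted p = 0.012) and that of Phvul.009G127900, annotated as a manganese transporter, was -3.35 (adjusted p = 0.017). Both missed the adjusted p threshold with the edgeR quasi-likelihood test and passed it with DESeq2 and the likelihood ratio test. In TR43477 roots the log2 fold changes were -0.80 for Phvul.008G244200, -0.56 for Phvul.010G101500 and -0.71 for Phvul.009G127900, none called by edgeR. The Ispir response minus the TR43477 response was -2.32, -2.86 and -2.63 in the same order (SE 0.69, 0.76 and 0.77). The edgeR interaction test, which called no gene at all, gave adjusted p = 0.19, 0.16 and 0.18, while DESeq2 called the difference for Phvul.010G101500 (adjusted p = 0.0087). The 3 genes were listed for a change in Ispir roots and not in TR43477 roots, in these same libraries. Their differences between the root responses thus rest on the contrasts that chose them and are not independent evidence. All 3 were root genes here, with leaf group means of at most 2.29 CPM for Phvul.009G127900, 0.29 CPM for Phvul.010G101500 and 0.055 CPM for Phvul.008G244200.

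Of the 10 zinc genes, edgeR called 5 lower and 1 higher in Ispir roots. Phvul.003G021300, a zinc transporter, had 618 ± 97.9 CPM in IR control and 80.9 ± 35.4 CPM in IR salt libraries, and it fell by 2.95 on the log2 scale. Phvul.009G240000, a zinc-exporting ATPase, fell by 1.69 on the log2 scale, and smaller decreases were called for Phvul.002G100001 (-1.16), Phvul.001G035800 (-1.08) and Phvul.003G240100 (-1.06). The gene that rose, Phvul.L007443, annotated as a zinc transporter precursor, stayed low, with at most 4 reads in an IR control library and 21 to 26 in the IR salt libraries. Phvul.003G262400 had at most 20 reads in IR controls and 0 in all 3 IR salt libraries. It was called by DESeq2 (adjusted p = 0.0037) and the likelihood ratio test (adjusted p = 1.2e-04) but not by the edgeR quasi-likelihood test. In TR43477 roots the zinc genes had log2 fold changes from -0.98 for Phvul.003G021300 to 1.70 for Phvul.L007443, with no calls by edgeR. DESeq2 called Phvul.L007443 higher and the copper gene Phvul.007G070001 (-1.13) lower.

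Of the 12 copper genes, 10 were tested in Ispir roots, where edgeR called 2 lower and 0 higher, while DESeq2 also called Phvul.004G106900 (1.09) and Phvul.004G116400 (1.11) higher and Phvul.011G060500 lower. The genes that edgeR called were Phvul.011G060400, of the Ctr family of copper uptake transporters, with -1.93, and Phvul.007G070001, of a copper transport protein family, with -1.53. The lowest and highest values of the class were -2.29 for Phvul.011G060500 and 1.11 for Phvul.004G116400, with edgeR adjusted p of 0.022 and 0.021. In TR43477 roots Phvul.004G116400 was again the highest, at 0.78, and the lowest fitted value belonged to Phvul.008G282200, which had at most 7 reads in any root library. For Phvul.011G060400, listed for Ispir roots alone, DESeq2 called the Ispir response minus the TR43477 response (-1.55, adjusted p = 0.0094). The edgeR interaction test did not call it (adjusted p = 0.13). The copper gene nearest to Phvul.001G225000 in its levels was Phvul.002G292900, related to ATOX1, a chaperone that hands copper to its pumps. It had 191 ± 39.5 CPM in IL control and 31.3 ± 8.71 CPM in IL salt libraries, a log2 fold change of -2.62 beside the -2.64 of Phvul.001G225000. In roots its log2 fold changes were 0.24 in Ispir (edgeR adjusted p = 0.67) and 0.75 in TR43477 (adjusted p = 0.16).

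The genes grouped under the methionine cycle had unlike patterns. Phvul.L005001, a methionine-gamma-lyase, breaks methionine down and is not itself a step of that cycle. It had 38.3, 30.8 and 40.6 CPM in IR control and 123, 135 and 120 CPM in IR salt libraries, and it rose by 1.76 on the log2 scale. In Ispir leaves it went from 14.6 to 18.2 CPM in controls to 132 to 187 CPM with salt, the reverse of Phvul.001G225000 in the same libraries. Phvul.009G108300, an adenosylhomocysteine nucleosidase, an enzyme class that clears by-products of reactions that use S-adenosylmethionine, moved in the same directions as Phvul.001G225000 in Ispir. It had 282 to 1040 CPM in IL control and 12.7 to 71.1 CPM in IL salt libraries, and 1.27 to 12.3 CPM in IR control and 58.0 to 187 CPM in IR salt libraries. Its log2 fold changes were -3.90 in Ispir leaf (edgeR adjusted p = 0.016) and 4.06 in Ispir root (adjusted p = 0.013), and neither was called by edgeR at the threshold of 0.01, while DESeq2 called the root increase. In TR43477 roots the values were 2.24 for Phvul.009G108300 (adjusted p = 0.26) and -0.72 for Phvul.L005001 (adjusted p = 0.60). In TR43477 leaves they were -0.29 for Phvul.009G108300 and -0.13 for Phvul.L005001, beside -0.29 for Phvul.001G225000. The sign of each of these leaf values changed when single libraries were left out.

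In Ispir leaves 25 of the listed genes were tested, of which edgeR called 1 higher and 5 lower beside 4.81% of all genes, with a median of -0.90 against -0.09 over all genes (-0.81 with 1 gene that had no read in a group set at its bound of 3 reads). The genes that fell were the copper genes Phvul.002G292900 (-2.62), Phvul.004G107100 (-2.82) and Phvul.007G075000 (-3.06) and the zinc genes Phvul.006G055800 (-1.91) and Phvul.009G240000 (-1.44), and Phvul.L005001 rose by 3.20. The number called was 1 to 7 with 1 library left out, 1 of them without salt replicate 2 or 3, 2 without control replicate 2 or salt replicate 1, and 7 without control replicate 3. The lowest copper value was that of Phvul.008G282300, with 265, 55 and 50 reads in controls and 4, 1 and 3 with salt, and the lowest zinc value that of Phvul.006G001000, with 72, 36 and 8 reads in controls and 3, 5 and 0 with salt, neither called by edgeR.

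In TR43477 leaves 26 were tested, of which edgeR called 1 higher and 2 lower beside 5.09% of all genes, with a median of -0.51 against -0.09 over all genes. Phvul.004G158700 (copper) rose by 3.15, and Phvul.011G060500 (copper, -1.70) and Phvul.006G055800 (zinc, -2.97) fell. Of these, edgeR called 0 without any 1 of the 3 salt-treated libraries. In the whole contrast 9 of the 26 listed genes had an unadjusted edgeR p under 0.05. Of all 22672 genes tested 7917 did, a share close to that of the list. The lowest copper value, -3.13 for Phvul.008G282200, was not called. The zinc genes with the highest and lowest fitted values there, Phvul.006G001000 and Phvul.003G262400, had no read in 1 of the groups and at most 4 and 8 reads in a library of the other.

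Between the genotypes, edgeR called 1 of 26 listed genes in control roots, beside 2.07% of all genes. It was Phvul.002G100001, a zinc transporter precursor, with 141 to 227 CPM in TR control and 11.4 to 14.6 CPM in IR control libraries. DESeq2 (-3.76, adjusted p = 9.1e-05) and the likelihood ratio test also called Phvul.L007443 lower in Ispir control roots. In salt-treated roots edgeR called 1 higher in Ispir and 5 lower, beside 5.99% of all genes, with a median of -0.81 against -0.02 over all genes. Lower were Phvul.002G100001 (-4.88), Phvul.011G060500 (-3.20), Phvul.003G021300 (-2.22), Phvul.L007443 (-1.98) and Phvul.002G099700 (-1.74), and higher was Phvul.L005001 (1.27). The number called was 3 without TR43477 salt replicate 1 or 3, 12 with DESeq2 and 15 with the likelihood ratio test. DESeq2 and the likelihood ratio test also called more of all genes in this comparison. Most of the list was chosen for a change in Ispir roots, which uses the same salt-treated Ispir libraries. The lower median and the lower calls under salt thus follow in part from the list.

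Genes were ranked by Pearson correlation with Phvul.001G225000 on log2(CPM + 0.5), among genes with a mean of at least 1 CPM. Over all 24 libraries and 20189 genes, the 5 most alike were Phvul.007G102000 (r = 0.90), Phvul.002G017400 (0.88), Phvul.005G061200 (0.88), Phvul.009G127400 (0.83) and Phvul.006G152100 (0.82), for which no annotation was used here. These are descriptions over libraries of 8 groups that share depth and scaling. The fall in Ispir leaves, for which Phvul.001G225000 was chosen, enters this ranking and the one over leaf libraries. Phvul.007G102000 had group means of 47.2 CPM in IL control and 10.9 CPM in IL salt, of 24.8 and 62.9 CPM in IR, and of 34.2 and 65.2 CPM in TR. Its salt response in TR43477 roots, 0.90 on the log2 scale, was thus below that of Phvul.001G225000, 1.996. Phvul.006G152100 ranked 11 with a pseudocount of 5 and 20 by Spearman correlation, while the first 3 genes stayed the first 3 under both.

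**Figure D4:**
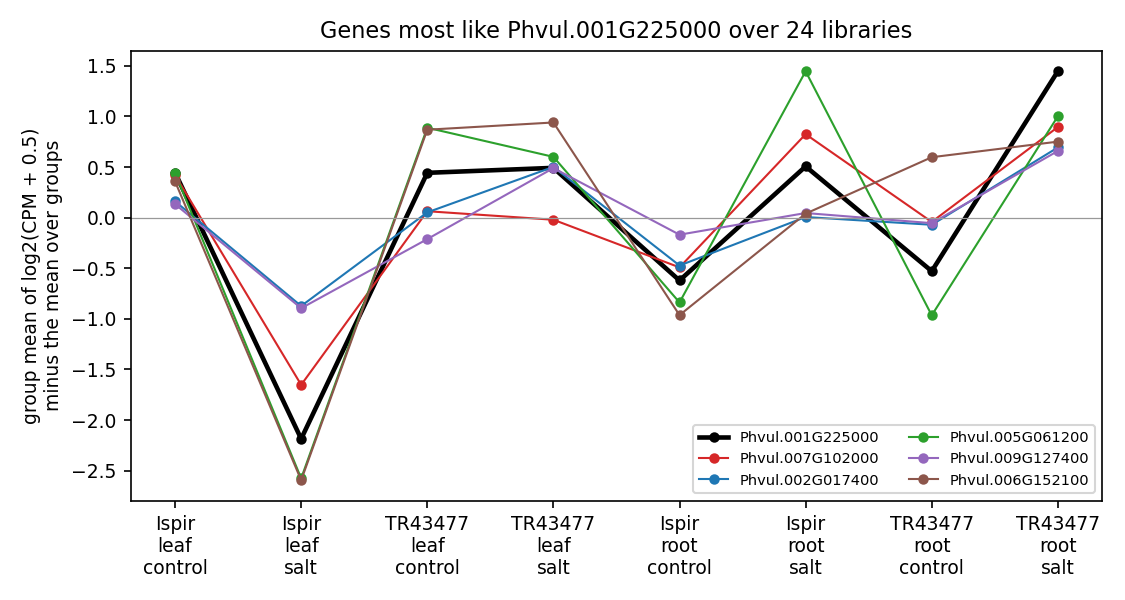
Group means of log2(CPM + 0.5), each minus the gene's mean over the 8 groups, for Phvul.001G225000 (black) and the 5 genes with the highest correlation over 24 libraries (colours). All 6 genes are lowest in salt-treated Ispir leaves, by unequal amounts. In salt-treated roots Phvul.005G061200 is the highest in Ispir and Phvul.001G225000 the highest in TR43477.

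Within tissues the most alike genes were others. Over the 12 leaf libraries and 18014 genes they were Phvul.003G112700 (r = 0.98), Phvul.005G061200 (0.98) and Phvul.003G107600 (0.97). By Spearman correlation these ranked 11, 2 and 93, and with a pseudocount of 5 they ranked 1, 6 and 3. Phvul.003G112700 had 727, 491 and 195 CPM in the 3 TL controls, so it shared the wide spread of that group, in the same libraries. Over the 12 root libraries and 19296 genes they were Phvul.007G084100 (r = 0.96), Phvul.008G151800 (0.96) and Phvul.001G191600 (0.94). Their ranks were 6, 5 and 122 by Spearman correlation and 1, 2 and 12 with a pseudocount of 5. Phvul.007G084100 had 44.4 to 74.6 CPM in IR control and 108 to 129 CPM in IR salt libraries, and in leaves it was higher with salt in both genotypes, at 159 CPM against 103 in Ispir, where Phvul.001G225000 was lower. Phvul.001G191600, which the annotation places at the cleavage of sucrose, was at most 0.26 CPM in any control root library and had 34.1 to 46.5 CPM in TR salt libraries.

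Of the listed metal genes, Phvul.002G292900 had the highest correlation with Phvul.001G225000 over 24 libraries (r = 0.77). Over the 12 leaf libraries the zinc-exporting ATPase Phvul.009G240000 had r = 0.93 and the methionine-gamma-lyase Phvul.L005001 r = -0.94, the highest and the lowest of the list. Phvul.002G292900, Phvul.009G240000 and Phvul.L005001 were each listed for a change in Ispir leaves, the response that also chose Phvul.001G225000. These correlations are thus in part built into the list and are not independent evidence. Over the 12 root libraries the highest was Phvul.L007443 (0.79) and the lowest Phvul.003G240100 (-0.59), and the manganese and iron genes ranged from -0.47 to -0.26.

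The neighbouring genes did not share the pattern. Phvul.001G224900 had group means from 0.69 CPM in TL control to 11 CPM in IR salt, and its log2 fold changes were -0.67 in Ispir leaf, 0.27 in Ispir root and 0.04 in TR43477 root, none called. In TR43477 leaves it rose by 2.64 (edgeR adjusted p = 0.0079), where Phvul.001G225000 stood at -0.29. Phvul.001G225100 was close to undetected, with group means of at most 0.34 CPM. The library kit keeps strand, but the strand setting of the counting is not given in the sources used here. With no gene of the tables overlapping Phvul.001G225000, no antisense partner was counted beside it.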

How the data were processed

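RNA of 24 common bean libraries (8 groups of 3) was sequenced after poly(A) selection. Per the labels and the study's methods, the authors used Trimmomatic for trimming, HISAT2 for alignment to genome version 2.1 and SeqMonk 1.44.0 for counting reads per gene. The deposited counts are whole, unnormalized read counts in 4 tables of 27213 genes. The strand and multiple-mapping settings are not given in the sources used here. The tables also hold the authors' p-values, adjusted p-values and log2 fold changes, which were not used.

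Counts were read as deposited. Each comparison was fitted over its own 6 libraries (12 for the interaction) with edgeR 4.0.16 in R 4.3.3 (TMM, quasi-likelihood test, two-sided, genes with at least 1 count in the fit, Benjamini-Hochberg over those genes). A call needs more than 1 log2 unit of change and an adjusted p below 0.01. The SE is the log2 fold change divided by the root of its F value. CPM values come from 1 TMM scaling of all 24 libraries (12163655 to 26416766 reads), fitted fold changes from the scaling of their own fit. The procedure was tested on simulated data. Alternatives were DESeq2 1.42.0, the likelihood ratio test of edgeR, upper-quartile scaling, library totals alone for the leaf values, filterByExpr, a replicate block, a threshold of 0.05, 12 libraries in 1 fit, and each library left out. Where edgeR is named alone, the quasi-likelihood test is meant.

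Tests planned for leaf minus root in TR43477 are not reported, since those leaves took part in choosing the gene. The gene, the metal list and the tests were chosen with earlier results of these data known. Named were the gene, the listed genes called in roots, the highest and lowest of each class in each salt response, the 5 (24 libraries) and 3 (12 libraries) genes most correlated, and both neighbours. Phvul.009G127900, Phvul.002G292900, Phvul.006G055800, Phvul.004G107100, Phvul.007G075000, Phvul.004G106900 and Phvul.002G099700 were named after their values were seen. Replicates are biological replicates by the labels, which do not say whether leaf and root of 1 number are from 1 plant. No sequence is shown, since none was used here.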

Additional observations from a re-analysis of the deposited data

Results flagged for a closer look

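The salt responses of Phvul.001G225000 in the leaves and in the roots of Ispir went in opposite directions in every library. The log2 fold change was -2.64 in Ispir leaf, where all 3 salt-treated libraries lay below all 3 controls, and 1.09 in Ispir root, where all 3 lay above. The difference between these responses was not tested, because the leaf contrast was used to choose the gene.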

How the results depend on the processing

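The sign of each root and leaf minus root value of Phvul.001G225000 held under every alternative run except for the genotype difference in control roots, -0.07, which became 0.067 without Ispir control replicate 3 and 0.087 without TR43477 control replicate 1 (range -0.24 to 0.087 with 1 library left out). The Ispir root response lost its call with 12 libraries in 1 fit (1.09, adjusted p 0.014). The TR43477 root response gained a call with DESeq2 (2.0), the likelihood ratio test (1.996) and 12 libraries (1.996). The leaf minus root difference in salt-treated TR43477 (-1.002), given with no test, was -0.996 with filterByExpr, -0.95 with the replicate block and -1.003 with 12 libraries. With 1 library left out the ranges were 0.96 to 1.29 (Ispir root), 1.76 to 2.25 (TR43477 root, adjusted p 0.014 to 0.10), -1.16 to -0.67 (interaction), -1.22 to -0.72 (genotypes, salt root), 0.56 to 1.76 (leaf minus root, control) and -1.23 to -0.76 (leaf minus root, salt). The untested leaf values ranged from -2.91 to -2.46 in Ispir and -0.73 to 0.50 in TR43477. Uncalled values in TR43477 roots that changed sign were those of Phvul.002G100001 (-0.04, but 0.15 without control replicate 1 and 0.14 without salt replicate 2, range -0.18 to 0.15) and Phvul.L005001 (-0.72, but 0.35 without control replicate 3, range -1.07 to 0.35). The cause of these changes was not tested.

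Counts of called genes depended on the method. DESeq2, against edgeR, called 1861 against 952 (Ispir root), 863 against 108 (TR43477 root), 253 against 0 (interaction), 1552 against 489 (genotypes, control root), 2343 against 1431 (genotypes, salt root) and 8354 against 5404 (leaf minus root, control). The likelihood ratio test called 2115, 943, 251, 1833, 2795 and 8630, and an adjusted p threshold of 0.05 gave 1889, 475, 62, 1377, 2550 and 8605. With 12 libraries the counts were 354 (TR43477 root), 1073 (genotypes, control root) and 8717 (leaf minus root, control). With 1 library left out they ranged over 137 to 1107, 4 to 510, 0 to 34, 52 to 663, 632 to 1637 and 2594 to 6888. In no comparison did every same-numbered pair correlate above 0.1 (r of pairs -0.21 to 0.38, the highest in Ispir root, where pairs 1, 2 and 3 had -0.071, 0.38 and 0.31), so the numbers were not taken to pair the libraries. At most 2 of 3 correlated best with their own number. The replicate block moved the counts to 1445 (Ispir root), 5 (TR43477 root), 25 (genotypes, control root) and 2745 (leaf minus root, control). Of the listed metal genes it called 16 in place of 10 in Ispir root and 0 in place of 3 in TR43477 leaf. The counting interval of the gene's lowest count, 20.1 to 26.1 CPM, lay within the range of its group, 18.2 to 33.4 CPM.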
